A study of Mus musculus with 20 samples.

Results

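The genes described here are 10 regulators of the Bcl2 family, Bcl2, Bcl2l1, Mcl1, Bcl2l11, Bax, Bak1, Bbc3, Pmaip1, Bid and Bad, out of 20886 genes with a named probe. They were chosen by symbol: a probe belonged to a gene where its RefSeq accession mapped to that gene, and the brightest probe stood for the gene. All 10 genes had a probe. Of these, 9 passed the filter on dim probes and were tested, and Bid did not pass. Their expression was read on arrays of donor CD8+ effector T cells that had been recovered from 4 sites (liver, lung, small intestine and peripheral blood) in mice with a lethal form of acute graft-versus-host disease. Each site had 5 arrays.

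All 4 groups came from the same kind of animal, and blood was the site against which each organ was set. Recipients were female mice of the strain C57Bl/6 m-act OVA, 8 to 16 weeks old, which carry an ovalbumin transgene driven by the CAG promoter. They were irradiated with 11 Gy, given as split doses of 5.5 Gy, and then received a graft of marrow cells and splenocytes. The CD8+ cells of the graft came from OT-I mice, whose transgenic T cell receptor recognises an ovalbumin peptide, and carried the CD45.1 allele, whereas the other graft cells and the recipients carried CD45.2. Cells were taken on day 4 after transplantation by magnetic selection for CD45.1. Cells from before transplantation or from mice without disease were not analysed here. No label links an array to an animal, and the p-values below therefore measure the spread between arrays. In such bulk RNA, fewer cells of a type and less RNA per cell cannot be told apart.

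The Bcl2 family decides whether the outer mitochondrial membrane stays intact. Bcl2, Bcl-xL (the product of Bcl2l1) and Mcl1 hold the pore-forming proteins Bax and Bak in check. The BH3-only proteins, among them Bim (Bcl2l11), Puma (Bbc3), Noxa (Pmaip1), Bid and Bad, bind the survival proteins or the pore formers and tip the balance towards death. In T cells, Bim is the main BH3-only protein behind the contraction of an activated population, and Mcl1 is needed for survival at nearly every stage.

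All levels are log2 processed signal minus the log2 signal at the 75th percentile of the same array, so that 0 is the brightness of a probe at that percentile and a difference of 1 is a doubling of relative signal. Levels of different genes come from different probes and are not set against each other. The CD8 T cell identity genes had array means between 4.60 and 4.80 in liver, 3.80 and 4.53 in lung, 2.94 and 4.88 in small intestine and 4.26 and 4.87 in blood. Within the small intestine, arrays 1, 2 and 4 were lowest, at 3.86, 3.22 and 2.94. The arrays labelled liver 5 and small intestine 5 went against their labels. The mean of 4 Paneth cell markers was 5.01 on liver 5 and -2.86 on small intestine 5, against 3.08 to 7.39 on the other small intestine arrays. Array lung 3 was low for alveolar macrophage markers, at -2.20 against 3.23 to 5.74 on the other lung arrays. Values without liver 5 and small intestine 5 are given beside the calls and beside the member differences from blood that moved by over 1.5 times.

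Bcl2l11 carried the only call among the members, so the sequence before its start is shown. Forkhead factors such as Foxo3 are known activators of Bcl2l11 and of Bbc3 when growth factor signalling is low, and their core motif TGTTTAC, or GTAAACA on the other strand, was searched for on both strands. The windows searched ran from 250 bases before to 50 bases after each start in the RefSeq promoter table of build GRCm38.p6. The motif was present in 1 of 2 windows of Bcl2l11 and in 1 of 3 windows of Bbc3, and in no window of the other 7 members found in the table. Across the genome 3.65% of 32851 windows and 4.05% of 27025 genes held it. The 250 bases before the Bcl2l11 start lie on the plus strand at chr2:128125788-128126037, and the stretch around the Bbc3 match at chr7:16310083-16310111, also on the plus strand. Capitals mark the motif, which starts 227 bases before the start of Bcl2l11 and 167 bases before that of Bbc3. A match is a description of the letters and no evidence of binding.

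Bcl2l11: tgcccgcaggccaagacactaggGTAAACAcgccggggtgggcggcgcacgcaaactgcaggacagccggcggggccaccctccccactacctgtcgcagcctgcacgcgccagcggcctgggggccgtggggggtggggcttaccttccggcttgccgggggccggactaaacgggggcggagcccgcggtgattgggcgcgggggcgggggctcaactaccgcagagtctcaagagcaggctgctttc

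Bbc3: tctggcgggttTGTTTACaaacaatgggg

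Of the 9 tested members, 1 was called at an adjusted p under 0.05, and in 1 of the 6 comparisons between sites. Bcl2l11 was higher in small intestine cells than in blood cells, where 10.8% of all 8057 tested genes were called (0.918% of the 8057 as higher and 9.92% as lower in small intestine). No member was called in the other comparisons. The share of all genes called there was 0% in liver against blood, 0.819% in lung against blood, 0.285% in lung against liver, 0% in small intestine against liver, and 0.149% where the small intestine was set against the lung. These shares rest on few arrays. Without liver 5 and small intestine 5 they were 26.3% in small intestine against blood, 16.3% in small intestine against liver, 2.63% in small intestine against lung, 2.17% in lung against blood, 0.248% in lung against liver and 0% in liver against blood. In that setting the called members were Bcl2l11 and Mcl1, both in small intestine against blood. Leaving out small intestine 5 alone gave 25.3%, 10.2% and 1.46% in small intestine against blood, liver and lung. In small intestine against blood the share was 0% without small intestine 2, 0.236% when arrays were scaled on probes well above background on all arrays and 44.6% with array weights. At an unadjusted p under 0.05 the members counted 2 of 9 in liver against blood, 2 in lung against blood, 3 in small intestine against blood and 1 in small intestine against lung. The matching shares of all genes were 2.79%, 33.8%, 32.8% and 8.24%. No member passed unadjusted in lung against liver or in small intestine against liver, where 14.8% and 22.0% of all genes did. An F-test over the 4 sites in limma called 0.757% of all genes and none of the members, and the smallest adjusted p among them was 0.0843, for Bcl2l11. These tests, like all below, come from a limma fit over all 20 arrays with Benjamini-Hochberg adjustment over all tested genes.

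**Figure D1:**
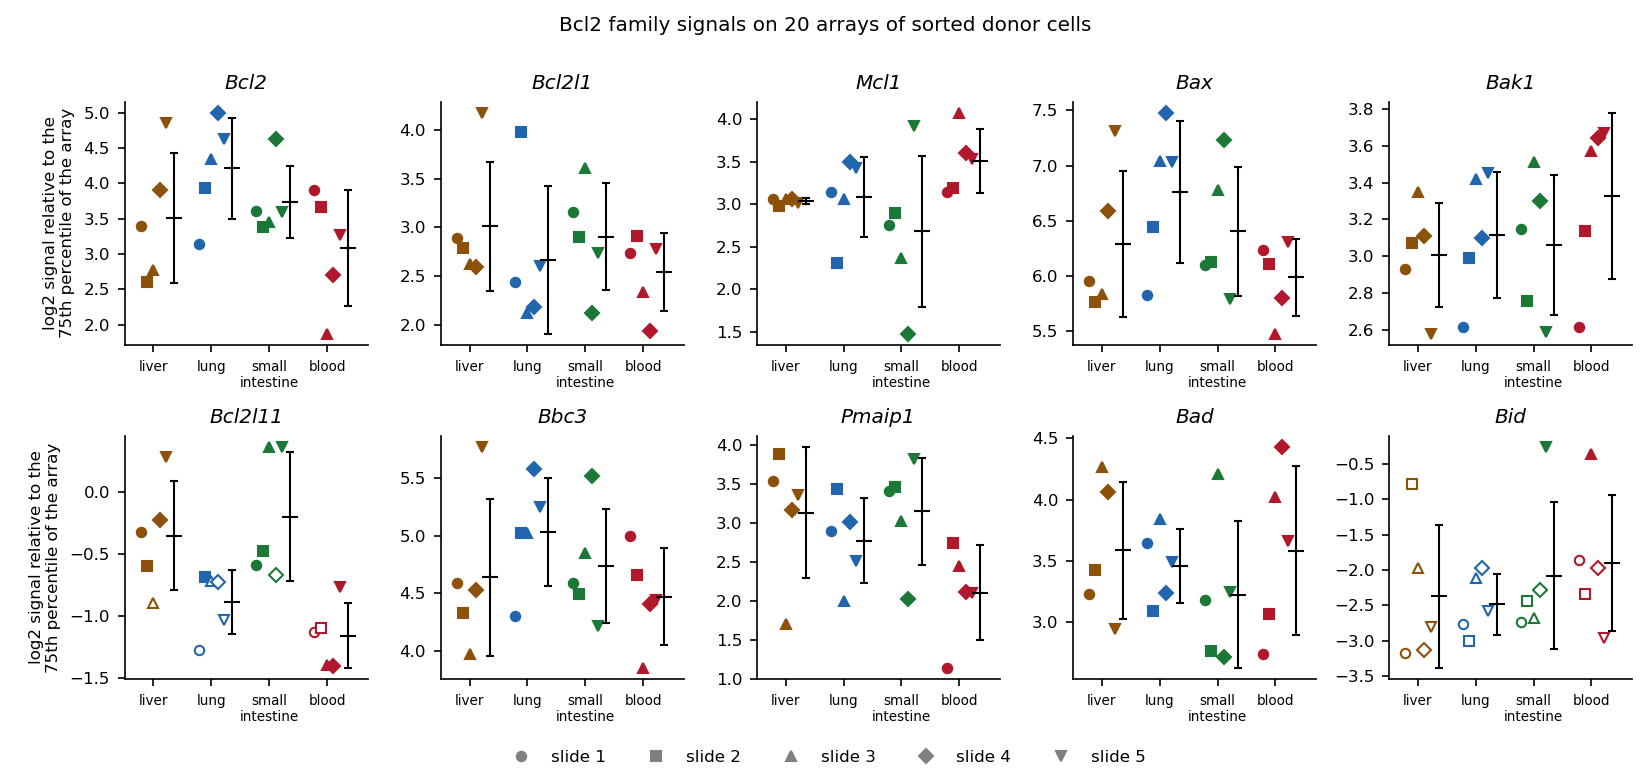
Log2 signal relative to the array's own 75th percentile (vertical axis) for the 10 genes in liver, lung, small intestine and blood; each point is 1 array, its shape gives the slide, filled points were well above background and open points were not, and the black bar is the mean with the SD of 5 arrays. Bcl2l11 lies between -0.67 and 0.36 in small intestine and between -1.41 and -0.77 in blood, without overlap, whereas most other genes overlap between sites.

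Bcl2l11 encodes Bim, which binds all the survival proteins. Its log2 signal in small intestine was -0.59, -0.48, 0.36, -0.67 and 0.36 on arrays 1 to 5. In blood it was -1.13, -1.10, -1.40, -1.41 and -0.77. Every small intestine array lay above every blood array, and arrays 3 and 5 of the small intestine stood highest. The means were -0.20 ± 0.52 in small intestine and -1.16 ± 0.26 in blood (SD, n = 5 each). The difference was 0.96 on the log2 scale (SE 0.26), a 1.95-fold higher signal, with an adjusted p of 0.0309 in limma. Every site had 1 array on each slide, and within slides small intestine was higher on 5 of 5, by 0.54, 0.62, 1.76, 0.74 and 1.14. Among all tested genes 0.496% were likewise higher in small intestine with no overlap.

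The Bcl2l11 probe was dim, and this bears on its call. It was well above background on 4 of 5 liver arrays, 1 of 5 lung arrays, 4 of 5 small intestine arrays and 3 of 5 blood arrays, so it entered the test through liver and small intestine, where it was also higher. The call did not hold in limma when small intestine 2 (adjusted p = 0.066), blood 2 (0.0614), blood 3 (0.0739), blood 4 (0.0612) or blood 5 (0.0520) was left out. It was lost when arrays were scaled on probes well above background on all arrays (difference 1.00, adjusted p = 0.0688) and after quantile normalization (0.76, adjusted p = 0.0769). After normexp background correction it was lost too (0.36, adjusted p = 0.0959). Of 32 alternatives that tested it, 19 kept the call, with adjusted p from 0.0117 to 0.205 over all 32. Those that left out a single liver or lung array all kept it. They leave the difference at 0.96 and change only the shared spread and the adjustment, so they say little about the small intestine and blood arrays. Without liver 5 and small intestine 5 the difference was 0.82 and the adjusted p 0.0245. The sites also differed in other ways beside this result. Array means of 13 immediate early genes, which handling of cells can raise, ran from 1.46 to 3.08 in small intestine and from 0.42 to 1.87 in blood. Means of the 4 tested of 12 monocyte and macrophage markers ran from -3.11 to 4.24 in small intestine and from -3.11 to -1.48 in blood, with 1 to 8 of the 10 markers with a probe well above background on a small intestine array and 0 to 2 on a blood array. Those of Paneth cell markers ran from -2.86 to 7.39 in small intestine and from -2.56 to -0.59 in blood, with 1 to 6 of 6 well above background on a small intestine array and 0 to 3 on a blood array. Means of the 2 tested of 8 B and plasma cell markers ran from -1.73 to 3.96 in small intestine and from -1.21 to -0.32 in blood, and those of the 4 tested of 14 small intestinal epithelium markers from -2.60 to 3.24 in small intestine and from -2.80 to -1.12 in blood. The part of these genes in the difference was not tested. Without small intestine 1, 2 and 4, a setting added with the values in view, the difference was 1.52 with an adjusted p of 0.205 on the remaining pair of small intestine arrays.

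In the other organs Bcl2l11 was intermediate. Liver arrays read -0.33, -0.60, -0.90, -0.23 and 0.28, with a mean of -0.35 ± 0.44, and lung arrays read -1.28, -0.69, -0.72, -0.73 and -1.04, with a mean of -0.89 ± 0.26 (SD, n = 5 each). Liver overlapped blood by a single pair of arrays, liver 3 and blood 5, and was higher than blood on 5 of 5 slides. Its difference of 0.81 (SE 0.26) had an unadjusted p of 0.00608 and an adjusted p of 0.997 in limma, in a comparison that called no gene. The small intestine did not overlap the lung, as held for 0.385% of all genes in that direction, and was higher on 5 of 5 slides by a mean of 0.69 (SE 0.26, adjusted p = 0.403 in limma). The order from highest to lowest mean was small intestine, liver, lung and blood, and no neighbours in that order differed beyond their spread (adjusted p = 0.734, 0.337 and 0.432 in limma).

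Pmaip1 encodes Noxa, a BH3-only protein that binds Mcl1 and sends it for degradation. Its log2 signal in small intestine was 3.41, 3.46, 3.02, 2.03 and 3.82, in liver 3.54, 3.88, 1.70, 3.17 and 3.36, and in lung 2.90, 3.43, 2.00, 3.01 and 2.51. In blood it was 1.14, 2.74, 2.45, 2.11 and 2.10. Blood lay lowest in mean and blood 1 lowest of all, but each organ held at least 1 array within the range of blood. The difference from blood was 1.04 in small intestine (SE 0.41, adjusted p = 0.0923), 1.02 in liver (SE 0.41, adjusted p = 0.997) and 0.66 in lung (SE 0.41, adjusted p = 0.23), all from limma, and each organ was higher on 4 of 5 slides. The call of this gene turned on the normalization. In small intestine against blood the difference was 1.39 with an adjusted p of 0.0464 after quantile normalization, and 4 of 33 alternatives called it, with adjusted p between 0.00749 and 0.478 over all of them. The immediate early means, which ran from 2.05 to 3.04 in liver and from 2.07 to 3.48 in lung, were above those of blood in these organs too, and their part in the Pmaip1 values was not tested.

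Bbc3 encodes Puma, the BH3-only protein best known as a p53 target. It averaged 4.64 ± 0.68 in liver, 5.03 ± 0.47 in lung, 4.73 ± 0.49 in small intestine and 4.47 ± 0.42 in blood (SD, n = 5 each). The ranges of all 4 sites overlapped, and the largest difference from blood, 0.56 in lung, had an adjusted p of 0.211 in limma. The liver difference was 0.17, and -0.12 without liver 5. Bad, whose product binds Bcl2 and Bcl-xL unless it is phosphorylated by survival kinases, averaged 3.59 ± 0.55 in liver, 3.46 ± 0.30 in lung, 3.23 ± 0.60 in small intestine and 3.58 ± 0.69 in blood (SD, n = 5 each). Its differences from blood were 0.01, -0.12 and -0.36, with adjusted p between 0.417 and 0.999 in limma. The sign of the liver value changed with the scaling, and it was 0.16 without liver 5. Its second probe was well above background on 1 of 5 small intestine arrays and 1 of 5 blood arrays and on no liver or lung array.

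Bid, which links death receptors to mitochondria after cleavage by caspase 8, was well above background on 2 of 20 arrays, small intestine 5 at -0.26 and blood 3 at -0.36. The other 18 arrays read between -3.18 and -0.78. With so few measured values it was not tested, and no difference between sites was detectable at this signal.

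The survival genes gave no call. The short-lived Mcl1 protein responds quickly to loss of growth factors. Its log2 signal in liver was 3.06, 2.98, 3.06, 3.06 and 3.02. In lung it was 3.14, 2.31, 3.06, 3.50 and 3.43, in small intestine 2.75, 2.90, 2.37, 1.47 and 3.92, and in blood 3.15, 3.19, 4.08, 3.60 and 3.53. Every liver array lay below every blood array, while lung and small intestine overlapped blood. Small intestine ran from the lowest to nearly the highest value of the 20 arrays, with small intestine 4 lowest. The means were 3.04 ± 0.03 in liver, 3.09 ± 0.47 in lung, 2.68 ± 0.88 in small intestine and 3.51 ± 0.38 in blood (SD, n = 5 each).

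The Mcl1 difference from blood was -0.47 in liver (SE 0.34, adjusted p = 0.997), -0.42 in lung (SE 0.34, adjusted p = 0.343) and -0.83 in small intestine (SE 0.34, adjusted p = 0.1), all from limma, and Mcl1 was lower on 5 of 5 slides in liver, 5 of 5 in lung and 4 of 5 in small intestine. Groups without overlap, as in liver against blood, made up 1.03% of all genes. Single arrays move the small intestine value. Without small intestine 5 the difference was -1.14 with an adjusted p of 0.0132 in limma, without liver 5 as well it was -1.14 with an adjusted p of 0.0136, and over all 33 alternatives the adjusted p ran from 0.0132 to 0.885. Without small intestine 4 the difference was -0.53 (adjusted p = 0.306 in limma), and without small intestine 1, 2 and 4 it was -0.37 (adjusted p = 0.885). CD8 T cell identity means on small intestine arrays 1 to 5 were 3.86, 3.22, 4.88, 2.94 and 4.77. Their part in the Mcl1 values was not tested. A second Mcl1 probe gave another order. It averaged 1.21 ± 0.55 in liver, 0.05 ± 0.90 in lung, 0.50 ± 1.74 in small intestine and 1.07 ± 0.32 in blood (SD, n = 5 each), and its correlation with the first over the 20 arrays was 0.52.

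Bcl2 encodes the founding survival protein, which naive and memory T cells keep high. It read 3.40, 2.60, 2.78, 3.90 and 4.86 in liver, 3.15, 3.94, 4.34, 5.00 and 4.63 in lung, 3.61, 3.39, 3.45, 4.63 and 3.60 in small intestine, and 3.91, 3.67, 1.87, 2.70 and 3.27 in blood. Lung held 4 of its 5 arrays above all blood arrays, and lung 1 lay within the range of blood. The lung difference was 1.13 (SE 0.45), with an adjusted p of 0.124 in limma and a higher value on 4 of 5 slides. Those of liver and small intestine were 0.43 and 0.65, with adjusted p of 0.997 and 0.273. Bcl2l1, which encodes Bcl-xL, averaged 3.01 ± 0.67 in liver, 2.67 ± 0.76 in lung, 2.91 ± 0.55 in small intestine and 2.54 ± 0.40 in blood (SD, n = 5 each). All sites overlapped, and the differences from blood of 0.47, 0.13 and 0.37 had adjusted p between 0.439 and 0.997 in limma. Without liver 5 the difference of liver from blood was 0.09 for Bcl2 and 0.18 for Bcl2l1. The sign of the Bcl2l1 lung value changed under another scaling, without lung 2 and without blood 4. Its second probe stayed at background on all arrays.

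The pore formers did not separate the sites either. Bax was brightest in lung, at 6.76 ± 0.65, with 6.29 ± 0.66 in liver, 6.40 ± 0.58 in small intestine and 5.98 ± 0.35 in blood (SD, n = 5 each). Its difference from blood was 0.78 in lung (SE 0.36, adjusted p = 0.139 in limma), and lung was higher on 4 of 5 slides. The liver difference was 0.30, and 0.05 without liver 5. Bak1 averaged 3.01 ± 0.28 in liver, 3.12 ± 0.34 in lung, 3.06 ± 0.38 in small intestine and 3.33 ± 0.45 in blood (SD, n = 5 each). Its differences from blood of -0.32, -0.21 and -0.26 had adjusted p between 0.417 and 0.997 in limma, and without liver 5 and small intestine 5 those of liver and small intestine were -0.21 and -0.15.

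**Figure D2:**
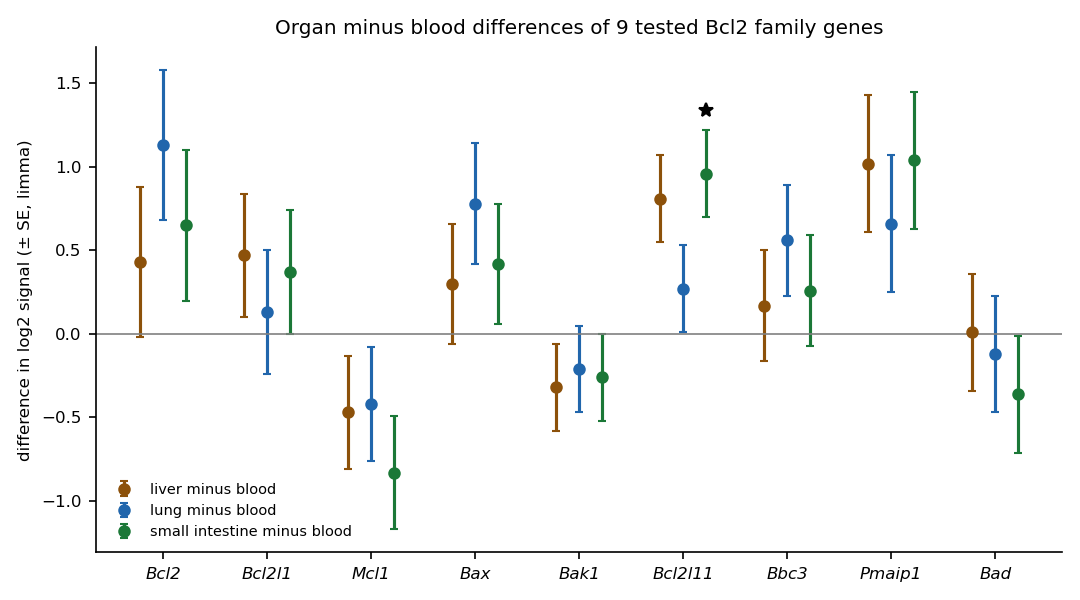
Difference in log2 signal between each organ and blood (vertical axis, points with the SE from limma) for the 9 tested members (horizontal axis), in the order liver, lung and small intestine for each gene; the star marks the single adjusted p under 0.05. Bcl2l11 in small intestine stands at 0.96, Pmaip1 at 1.04 with a wider SE, Bcl2 in lung at 1.13, and all Mcl1 and Bak1 values lie below 0.

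The median difference of the 9 members from blood was 0.30 for liver (all tested genes 0.05), 0.27 for lung (-0.30) and 0.37 for small intestine (-0.36). The mean of the organ was above that of blood for 7 of 9 members with liver, 6 with lung and 6 with small intestine. The share of all tested genes above blood was not counted. Bcl2, Bax and Bbc3 were among these members in every organ. They moved together over the arrays (r = 0.90 to 0.92, described below), so the counts are not of independent genes. Among the organ pairs, the member median of lung minus liver was 0.05 (all genes -0.25), that of small intestine minus liver 0.06 (-0.34) and that of small intestine minus lung -0.24 (-0.15). Without liver 5 and small intestine 5 the member median was 0.09 for liver and 0.41 for small intestine against blood, and 0.17 for small intestine against liver. The 3 comparisons with blood share the same 5 blood arrays.

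A difference between a pair of genes on the same array does not depend on how the array was scaled, although its size carries the brightness of both probes and only its change between sites can be read. Bcl2l11 minus Mcl1 was -3.34, -3.38, -2.01, -2.15 and -3.55 in small intestine, -3.38, -3.58, -3.95, -3.29 and -2.74 in liver, and -4.42, -3.01, -3.78, -4.23 and -4.47 in lung. In blood it was -4.28, -4.29, -5.47, -5.01 and -4.30. Every small intestine and liver array lay above every blood array, and lung overlapped blood. Pmaip1 minus Mcl1 ran from -0.09 to 0.66 in small intestine and from -2.0 to -0.45 in blood, again without overlap, while liver, from -1.36 to 0.90, and lung, from -1.06 to 1.12, overlapped blood. These pairs were chosen after the single genes had been seen and were not tested. Each sets a gene whose organ means lay above blood against Mcl1, whose organ means lay below it, so part of the separation is built in. The share of all gene pairs that separate in the same way was not counted.

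Bcl2, Bax and Bbc3 moved together over the 20 arrays. The Pearson correlation was 0.90 between Bcl2 and Bax, 0.91 between Bcl2 and Bbc3 and 0.92 between Bax and Bbc3, whereas the next highest of the 36 pairs of members was 0.63 and the median pair -0.03. The points share arrays, amplification and scaling value, so these correlations are a description. All 3 genes were higher where the signal at the 75th percentile was low, with a correlation of -0.71 for Bcl2, -0.88 for Bax and -0.75 for Bbc3 with its log2 value, while the median tested gene had 0.19 and 13.9% of tested genes had -0.70 or lower. Unscaled, their log2 signal varied little, with an SD over the 20 arrays of 0.57, 0.29 and 0.39 against a median of 0.87 for tested genes. The part of this pattern in the lung values of Bcl2 and Bax was not tested, nor was that of alveolar macrophage RNA. Array means of 9 tested of 11 alveolar macrophage markers ran from -2.20 to 5.74 in lung and from -3.25 to -1.58 in blood, with 0 to 11 of 11 well above background on a lung array and 0 to 3 on a blood array. On lung 3, where all 11 stayed below that limit, Bcl2 read 4.34 and Bax 7.04, above every blood array. The signal at the 75th percentile was also lower on lung 3, at 1250, than on every blood array (1553 to 2404). This is 1 array, and neither part was tested on it.

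**Figure D3:**
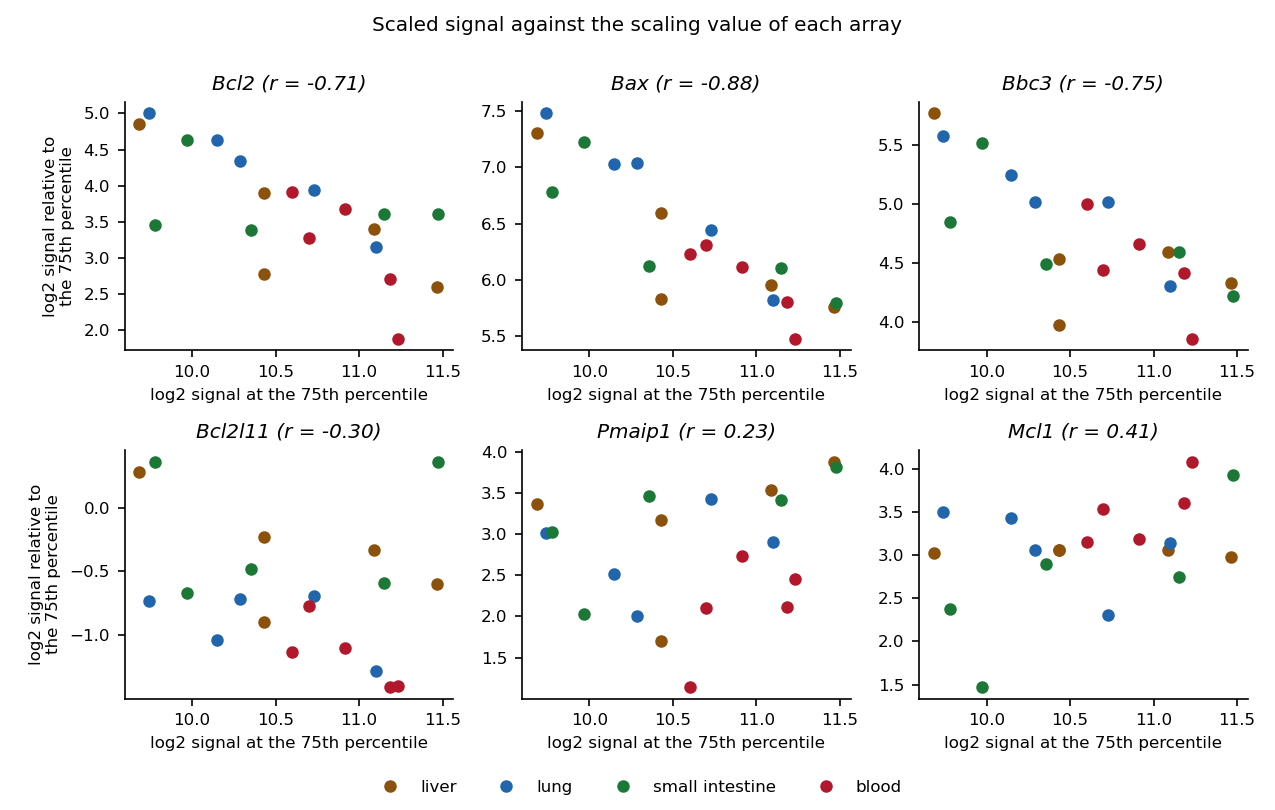
Log2 signal relative to the 75th percentile (vertical axis) against the log2 signal at the 75th percentile of the same array (horizontal axis) for 6 members, each point 1 of 20 arrays coloured by site. Bcl2, Bax and Bbc3 fall as the scaling value rises (r = -0.71, -0.88 and -0.75), and Bcl2l11, Pmaip1 and Mcl1 do so less or not at all (r = -0.30, 0.23 and 0.41).

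Many other genes shared the pattern. Correlations of 0.90 or more were found with 763 genes for Bcl2 (9.47% of other tested genes), 611 for Bax (7.58%) and 615 for Bbc3 (7.63%). Of these, 506 were common to all 3, and 849 of the 8057 tested genes belonged to at least 1 set. Among the 849 were 0 of 14 tested CD8 T cell identity genes and 2 of 42 tested markers of other cells (Cxcr2 and Xcr1). Of 71 tested genes of the death and survival lists below, 7 were among them. These counts are small and were not tested against the share of all genes. The genes most like Bcl2 were 6430548M08Rik, Cdh2 and Kif9, those most like Bax were Ppip5k2, Bmyc and Rfng, and those most like Bbc3 were Fastk, Aatk and Fetub, all with a correlation of 0.98 or more. In the authors' deposited value table the counts were 764, 721 and 361. The other 6 tested members had no such gene, apart from Bad with 11.

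The remaining members had other neighbours. The 3 genes most like Pmaip1 were Cd83, Tgif1 and Zfp36l1 (r = 0.83, 0.83 and 0.81), and those most like Bcl2l11 were Adh4, Coq10b and Cxcr4 (r = 0.80, 0.79 and 0.77). Mcl1 was most like Mavs, Atg5 and Hsd17b4 (r = 0.83, 0.82 and 0.82), and Bcl2l1 most like H3f3b, Pex3 and Uap1 (r = 0.81, 0.79 and 0.79). Bak1 was most like Ddost, Ptges2 and Atxn7l3b (r = 0.80, 0.79 and 0.79), and Bad most like Dpm3, Cyhr1 and Ndufv1 (r = 0.95, 0.94 and 0.93). Each correlation is over the same 20 arrays.

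**Figure D4:**
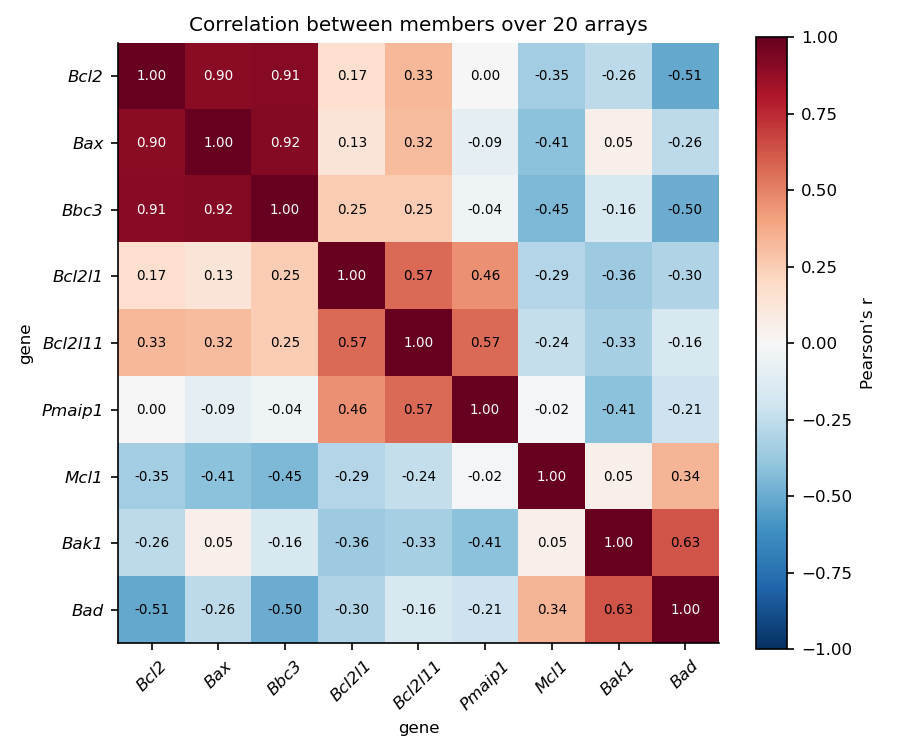
Pearson's r over the 20 arrays between the 9 tested members (both axes list the genes; colour and number give r). Bcl2, Bax and Bbc3 form a block with r of 0.90 to 0.92, and no other pair exceeds 0.63.

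Genes around the family were read from lists of the wider death and survival pathways. Of 16 further Bcl2 family genes 14 had a probe and 6 were tested, and none passed in any comparison over all 20 arrays. The smallest p among them belonged to Bcl2l12, at -1.71 in lung and -0.05 in liver, a difference of -1.66 with an adjusted p of 0.244 in limma. Without liver 5 and small intestine 5 it passed in limma in small intestine against blood (difference -2.07, adjusted p = 0.00485) and in small intestine against liver (-2.35, adjusted p = 0.00497), with its probe well above background on 1 of 5 small intestine, 4 of 5 liver and 5 of 5 blood arrays. Bcl2a1d, a survival gene with near-identical copies that its probe may not tell apart, averaged 6.40 ± 0.72 in liver, 5.75 ± 0.26 in lung, 6.45 ± 0.69 in small intestine and 6.10 ± 0.44 in blood (SD, n = 5 each), with adjusted p between 0.425 and 0.997 against blood.

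In the 5 other lists, all calls over the 20 arrays fell in small intestine against blood, where 0.918% of all tested genes were called as higher and 9.92% as lower in small intestine. CD8 T cell identity means on small intestine arrays 1 to 5 were 3.86, 3.22, 4.88, 2.94 and 4.77. In blood they ran from 4.26 to 4.87, and the part of these genes in the calls was not tested. The mitochondrial death list, which acts below Bax and Bak, had 0 higher and 4 lower of 13 tested genes, with a median of -0.43 against -0.36 for all genes. Aifm1, a mitochondrial flavoprotein, was 1.98, 1.06, 2.15, 0.62 and 2.21 in small intestine and 2.80, 2.91, 3.15, 3.09 and 3.34 in blood. The values did not overlap (difference -1.45, adjusted p = 0.017 in limma). The share of all genes that lay lower in small intestine without overlap was not counted. The initiator caspase gene Casp9 was lower by a difference of -2.17 (adjusted p = 0.0323), the executioner gene Casp6 by -1.11 (0.0374), and Diablo, whose product releases caspases from their inhibitors, by -1.24 (0.0448). Casp9, Casp6 and Diablo were each well above background on 1 of 5 small intestine arrays and 4 of 5 blood arrays, so of these 2 sites they met the filter in blood, where they were higher.

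The death receptor list had 0 higher and 1 lower of 10 tested genes, with a median of -0.02. The lower gene was Tradd, an adaptor of the tumour necrosis factor receptor, at 3.03 in small intestine and 4.33 in blood (difference -1.30, adjusted p = 0.0302 in limma). The p53 list had 1 higher and 0 lower of 13, with a median of 0.35. The higher gene was Cdkn1a, a cell cycle inhibitor, which stood at 3.34 and 3.69 on small intestine 1 and 2 and between -0.51 and 0.54 on the other small intestine arrays, against -1.55 to -0.02 in blood (difference 2.35, adjusted p = 0.0451 in limma). Monocyte and macrophage marker means were 3.76 and 4.24 on small intestine 1 and 2 and between -3.11 and 0.56 on the other small intestine arrays, and their part in this difference was not tested.

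The survival cytokine list had 1 higher and 0 lower of 18, with a median of -0.35. Its higher gene was Cish, a feedback inhibitor that STAT5 induces. Cish read 3.15, 2.88, 2.12, 1.30 and 2.29 in small intestine and -1.74, 1.16, 0.23, -3.93 and 0.22 in blood (difference 3.16, adjusted p = 0.0382 in limma). Its values did not overlap, as held for 0.496% of all genes in that direction. The list on turnover of the Mcl1 and Bim proteins had 1 higher and 3 lower of 11, with a median of -0.38. Trib1, an adaptor for a ubiquitin ligase, was higher by 1.52 (adjusted p = 0.0448). Gsk3b, a kinase that marks Mcl1 for degradation, was lower with a difference of -1.09 (0.017), Fbxw7, the ligase subunit that recognises this mark, with -1.41 (0.017), and the kinase gene Rps6ka1 with -1.01 (0.0312). Gsk3b was lower on 5 of 5 slides, without overlap. It was picked by its call in this comparison, so the lack of overlap is no separate result. Of the 2 sites compared, 4 of these genes also met the filter in the brighter one only. Fbxw7 was well above background on 1 of 5 small intestine arrays and 5 of 5 blood arrays, Trib1 on 4 small intestine and 2 blood arrays, Cdkn1a on 5 small intestine and 2 blood arrays, and Cish on 5 small intestine and 3 blood arrays.

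The calls of these 11 genes depended on the scaling and on single arrays. In limma none of them passed when arrays were scaled on probes well above background on all arrays (adjusted p from 0.0709 to 0.116) or when small intestine 2 was left out (0.0576 to 0.142), and all 11 passed with slide as a block (0.0197 to 0.0453). Of the 11, 3 passed without small intestine 1, 4 without small intestine 4, 4 without blood 2, and 3 without blood 3, blood 4 or blood 5. With the mean of a gene's probes 7 of the 11 passed in limma. The calls lost there were Gsk3b (difference -0.72, adjusted p = 0.0736), Fbxw7 (-0.80, 0.0558), Trib1 (0.65, 0.265) and Diablo (-0.65, 0.155). Without liver 5 and small intestine 5, 10 passed and Trib1 did not (adjusted p = 0.0511). In that setting the lists gained calls in small intestine against blood for Bcap31 (-0.88), Tnf (1.37), Il4ra (0.95) and Pik3cd (-2.59), which are named here after their values were seen. Small intestine against liver then had 5 lower of 13 in the mitochondrial death list, 1 lower of 10 in the death receptor list, 1 higher of 13 in the p53 list, 2 lower of 18 in the cytokine list and 3 lower of 11 in the turnover list, where 16.3% of all genes were called. Small intestine against lung had 1 lower in the mitochondrial death list (Casp9, -2.01) and 1 lower in the turnover list (Fbxw7, -1.10). There 2.63% of all genes were called. Casp9 was well above background on 1 of 5 small intestine and 2 of 5 lung arrays, so it met the filter in neither of these sites. Fbxw7 was well above background on 1 of 5 small intestine and 4 of 5 lung arrays. Without small intestine 1, 2 and 4 none of the 11 genes passed in small intestine against blood, and the adjusted p ran from 0.27 to 0.885.

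**Figure D5:**
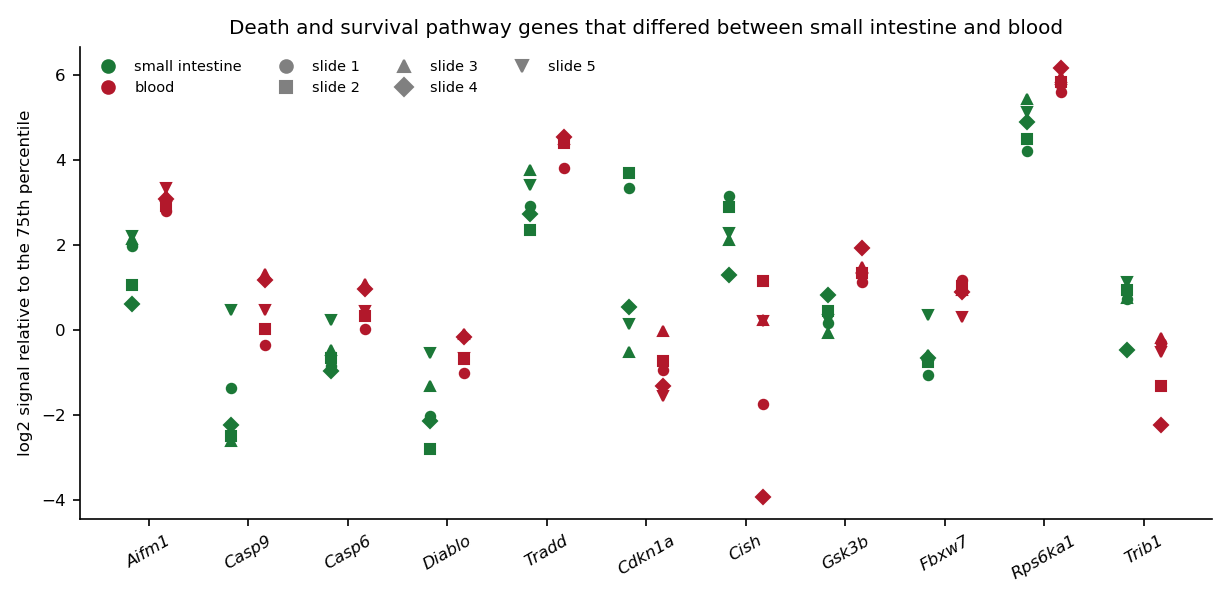
Log2 signal relative to the 75th percentile (vertical axis) of the 11 pathway genes called in small intestine against blood (horizontal axis), 5 arrays per site with small intestine left of blood and marker shape for the slide. Aifm1, Tradd, Gsk3b and Rps6ka1 lie below blood and Cish above it without overlap, and Cdkn1a is high on small intestine 1 and 2. The 11 genes were picked by their calls, so a lack of overlap among them is no separate result.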

How the data were processed

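The deposited array files give signal intensity per spot. Per the file headers the scans were read with Feature Extraction 11.0.1.1, while version 10.7 and Partek are listed in the submitters' processing notes. The intensity used, the processed signal, is linear and background-subtracted, per the file headers. The value table deposited by the authors holds log2 values, which differ from quantile-normalized processed signal by a median of 0.000108 in absolute size and have a median of 8.05 per column.

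After removal of controls and of 24 non-uniform spots, the processed signal was divided by its 75th percentile on that array (823 to 2845) and taken as log2. The share of probes well above background was 22.6% to 38.7%, and precision is limited by the 5 arrays a site. Of the probes, 27508 got a symbol from RefSeq's GRCm38.p6 gene table by accession, and 11921 had no symbol. Testing required that the brightest probe of a gene be well above background on 4 or more of the 5 arrays of some site, which kept 8057 genes. limma 3.58.1 in R 4.3.3 fitted 1 coefficient per site over 20 arrays, leaving 16 residual degrees of freedom, and two-sided p-values were adjusted by Benjamini-Hochberg per contrast (6 contrasts, threshold 0.05). The procedure was tested on simulated data. Those values were drawn independently for each gene and array, so likeness between arrays or between genes was not covered. Figures were drawn with matplotlib 3.10.9.

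The members and all lists were chosen with earlier results of these data known. Named were all members, up to 4 called genes of each pathway list and contrast (or the gene of smallest p of a list with no call), and the 3 genes of highest correlation with each member. Bcl2a1d, the pairs of genes on an array and the promoter motif were chosen after values were seen.

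Alternatives were other scalings, quantile normalization, normexp with an offset of 50, other filters, the mean of a gene's probes, array weights, pairwise fits, slide as a block and arrays left out. The array files used here have no mean signal, so normexp used the median signal and the median background. Arrays of 1 replicate number shared a slide, 1 per site, and slide as a block is therefore also the replicate block. Of 30 same-slide pairs of arrays, 18 had deviations from the site means that correlated above 0.1 (range -0.374 to 0.562). Their median was 0.156, against -0.0521 for 120 pairs of different sites and slides, so arrays of a slide were somewhat alike. The labels state no pairing, and the main fit therefore held no slide term and leaves this likeness out. The block stayed an alternative.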

Additional observations from a re-analysis of the deposited data

Results flagged for a closer look

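Of 40 groups of 5 arrays (10 genes at 4 sites), 4 held an array far from the other 4. Chance alone marks about 1 in 20 groups. The 40 groups share the same 20 arrays, so their flags are not independent, and their number was not tested against that rate. Bcl2 stood at 4.63 on small intestine 4, where the other small intestine arrays read 3.39 to 3.61. Bcl2l1 stood at 4.18 on liver 5, against 2.59 to 2.89 on the other liver arrays, and liver 5 is the array whose Paneth cell markers went against its label. Bcl2l1 also stood at 3.98 on lung 2, with 2.12 to 2.60 on the other lung arrays. Bid stood at -0.26 on small intestine 5, the single small intestine array on which it was well above background, with -2.74 to -2.28 on the others.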

How the results depend on the processing

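The number of members called in small intestine against blood was 1, and 0 to 2 when single arrays were left out. It was 0 with scaling on probes well above background on all arrays (with or without slide as a replicate block), with no filter, with only probes well above background on all arrays (where Bcl2l11 was not tested), with only the 2 sites in the fit, and without small intestine 1, 2 and 4. It was 2 without liver 5 and small intestine 5 (Bcl2l11 and Mcl1), where 26.3% of all genes were called. With array weights, which called 44.6% of all genes, Pmaip1 (difference 1.15, adjusted p = 0.00749) and Mcl1 (-0.68, adjusted p = 0.0136) were added in limma, and the number was 3. After quantile normalization, in the deposited table and after normexp it was again 1, but the gene was Pmaip1 (adjusted p = 0.0464, 0.0464 and 0.04) and not Bcl2l11 (0.0769, 0.0771 and 0.0959). With slide as a replicate block the call was Bcl2l11 (difference 0.96, adjusted p = 0.0286 in limma), and the block changed no other call named in the text. Of the 11 pathway genes, 7 passed after quantile normalization, in the deposited table, after normexp and with the mean of a gene's probes, 5 with only the 2 sites in the fit and 3 with no filter. The F-test over the 4 sites called 2 members with array weights (Bcl2l11, adjusted p = 0.0138, and Pmaip1, 0.0171). The share of all genes it called in that setting is not given here. No member was called in the other 5 comparisons under any alternative run. Of 1276 comparisons of a gene's value with an alternative, 27 changed sign, all for differences that were not called. In liver against blood, Bax became -0.04 with array weights, Bbc3 took -0.12, -0.04 and -0.02 (-0.12 to 0.33 with single arrays left out), and Bad took -0.18, -0.08 and -0.04 (-0.21 to 0.22 with single arrays left out). In lung against blood, Bcl2l1 took -0.06 (-0.20 to 0.26 with single arrays left out), and Bad 0.08 (-0.33 to 0.09). In small intestine against blood, Bad took 0.00 with the mean of its probes and 0.15 without small intestine 1, 2 and 4. The causes were not tested. Arrays were best correlated with their own slide in 7 of 20 cases. Dim probes limit Bcl2l11 and Bid, and 5 arrays per site limit all differences.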
